A study of Drosophila melanogaster with 31 samples.

Results

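The regions described here were open chromatin in every list of peaks from early *Drosophila melanogaster* embryos and had no peak late in embryogenesis. They were selected on measured values. In each of the 12 lists, overlapping peaks were merged into regions and ranked by their highest −log10 q, so that rank 1 is the strongest region. A member is a region of grhMwt_stage6 on chromosome 2 or 3, among its strongest 10000, that overlapped one of the strongest 10000 regions of all other 9 stage 5 and stage 6 lists. It also overlapped no peak of either list at 11-12 h after egg laying (AEL). Of the 43000 regions of grhMwt_stage6, 8081 were among the strongest 10000 and on these chromosomes. Of these 8081, 3999 met the early part of the rule, and 822 were members. Among the other early regions, 1837 had a peak in both late lists, 1321 in the control late list alone and 19 in the mutant late list alone. The members were spread over the arms, with 213 on 2L, 185 on 2R, 204 on 3L and 220 on 3R. Their early ranks and their late absence chose them and are given below as a description. The limma fit further below is on the differences between stages and genotypes, which the rule did not use, but its embryos belong to lists that the rule did use.

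ATAC-seq uses the Tn5 transposase to insert sequencing adapters into DNA that is not packed in nucleosomes, so a peak marks an accessible stretch such as a promoter or an enhancer. At stage 5 of embryogenesis the blastoderm becomes cellular while the zygotic genome is activated, and stage 6 is the beginning of gastrulation. Zelda (Zld) is a maternally supplied zinc-finger protein that opens chromatin at the activation of the zygotic genome and recognizes the heptamer CAGGTAG. Grainy head (Grh) is a pioneer factor of epithelial cells that recognizes AACNGGTT, and GAGA factor (Trl) binds repeats of GAGAG at many promoters.

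The study compared embryos lacking Grh with their siblings in 3 experiments and 31 samples. In the first, females carrying germline clones of the null allele grhB37, made by heat-shock FLP-FRT recombination, laid eggs without maternal Grh (grhM-, grhMaternal-), compared with grhMaternal+ siblings (grhMwt) at stage 5 and stage 6. In the second, embryos homozygous for the same allele (grhZ-, grhB37/grhB37) were compared with grhB37/+ siblings (grhZwt) at stage 6 and at 11-12 h AEL, with the allele kept over a fluorescently marked CyO balancer. In the third, embryos without maternal and zygotic Grh (grhM-Z-, grhMaternal- and grhB37/grhB37) were compared with siblings that were grhMaternal+ and grhB37/+ (grhMwtZwt) at stage 5 and stage 6. Each stage 5 and stage 6 sample is a single embryo, with 3 per group except 2 for grhMwtZwt at stage 6. Each late group is 1 sample of 7 pooled embryos. The lists of the third experiment name peaks for each embryo, and the other lists hold the replicates of a group together, so they carry no spread between embryos. The early lists held 31898 to 81187 regions. The late lists were shorter, with 20540 regions in the control and 10509 in the mutant. The median local background at a summit was 15.6 and 15.8 fragments in the late lists and 3.53 to 15.0 in the early lists. The late libraries also differ from the early ones in read type and in having no selection by fragment length. Developmental time, library type and list length therefore cannot be told apart in the late absence of a peak. In whole embryos, fewer cells with an open region and less opening per cell cannot be told apart either.

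The sequences below are shown because the Zld heptamer had the largest difference in share between members and early regions that kept a late peak. They are the 8 members with the most Zld heptamers within 50 bp of the strongest summit, taken on arms 2L, 3L and 3R from the 10 strongest members, the members of the 5 genes with most members and the 2 strongest members of each gene list, with ties broken by median early rank. Each is the plus strand of dm6 from RefSeq around the summit, without annotated UTR bases, and capitals mark a Zld heptamer on either strand, which is CAGGTAG or its variant forms CAGGCAG and also TAGGTAG.
cnc, chr3R:23193479-23193579, in an intron of cnc: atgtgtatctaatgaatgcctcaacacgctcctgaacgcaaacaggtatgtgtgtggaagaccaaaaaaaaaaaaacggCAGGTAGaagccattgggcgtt
CG14937, chr2L:11794087-11794166, intergenic: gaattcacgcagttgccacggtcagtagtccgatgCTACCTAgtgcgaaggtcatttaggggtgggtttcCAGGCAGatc
halo, chr2L:1518179-1518279, intergenic: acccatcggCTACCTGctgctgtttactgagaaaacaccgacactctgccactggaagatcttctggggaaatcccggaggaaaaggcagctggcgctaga
CG43203, chr3R:19350557-19350657, intergenic: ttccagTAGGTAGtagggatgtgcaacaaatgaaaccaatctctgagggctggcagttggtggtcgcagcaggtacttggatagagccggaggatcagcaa
wntD, chr3R:13293465-13293565, intergenic: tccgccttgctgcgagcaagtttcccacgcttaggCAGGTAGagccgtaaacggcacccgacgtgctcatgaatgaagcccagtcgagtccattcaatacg
Ir21a, chr2L:35715-35815, across the edge of a coding exon of Cda5: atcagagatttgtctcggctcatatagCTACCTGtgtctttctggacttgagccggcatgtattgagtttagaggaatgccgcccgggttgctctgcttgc
Svil, chr3L:2385762-2385862, in an intron of Svil: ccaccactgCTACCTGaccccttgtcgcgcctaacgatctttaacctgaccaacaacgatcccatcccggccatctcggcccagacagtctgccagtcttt
Svil, chr3L:2467304-2467404, in an intron of Svil: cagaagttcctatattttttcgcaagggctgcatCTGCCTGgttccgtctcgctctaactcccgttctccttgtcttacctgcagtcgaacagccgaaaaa

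Each sequence is named by the gene with the nearest annotated start site, which need not be the gene the region acts on. The heptamer lay 9 bp from the summit at CG14937, 12 bp at wntD, 13 bp at the second region of Svil, 20 bp at Ir21a, 32 bp at cnc, 38 bp at halo and at the first region of Svil, and 41 bp at CG43203. CG14937 was the only one of these 8 with 2 heptamers, and neither of its strings was CAGGTAG.

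Across all members, CAGGTAG lay within 50 bp of the summit in 95 of 822 regions (11.6%, exact Clopper-Pearson 95% interval 9.45% to 13.9%). In the early regions with a peak in both late lists the share was 2.34% (1.70% to 3.14%), in those with a peak in the control late list alone 2.04% (1.35% to 2.96%), and in all 8081 strongest regions 3.16% (2.79% to 3.56%). The reversed string GATGGAC, which has the same base composition, was found in 1.09% of members (0.502% to 2.07%) and in 0.490% of the regions with both late peaks (0.224% to 0.928%). The intervals for CAGGTAG in members and in the other sets did not overlap, whereas those for its reversal did. Here and below, the intervals cover counting error only and regions are not replicates of a condition. At least 2 copies of CAGGTAG were found in 8 members and in 1 region with both late peaks. The other Zld heptamers differed less, with 3.65% of members and 2.29% of regions with both late peaks for CAGGCAG, and 2.19% and 0.762% for TAGGTAG. At least 1 of the 3 heptamers was found in 135 members (16.4%) and in 5.17% of the regions with both late peaks. By arm, the share of members with CAGGTAG was 15.0% on 2L, 8.65% on 2R, 14.7% on 3L and 7.73% on 3R, with overlapping intervals.

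The strings of other factors were searched in the same window on both strands. The Trl string GAGAGAG differed in the opposite direction to the Zld string, with 6.20% of members (4.65% to 8.08%), 14.4% of regions with both late peaks (12.8% to 16.1%) and 8.80% of all strongest regions. In early regions with a peak in the control late list alone it was 7.27% (5.93% to 8.80%), which overlaps the interval of members. A low share of this string was thus not limited to members. A reversal of this string is the string itself, so it has no control of its own here. ACAAAGG, the string of the Sox-domain protein Dichaete (D), was found in 3.16% of members (2.08% to 4.60%) and 0.817% of regions with both late peaks (0.458% to 1.34%), while its reversal GGAAACA was found in 1.34% and 1.63%. TTTTATG of the homeodomain protein Caudal (Cad) was found in 2.43% and 1.14% and GGATTA of Bicoid (Bcd) in 3.16% and 1.47%, with overlapping intervals in both cases. AACNGGTT of Grh was found in 12 members (1.46%, 0.757% to 2.54%), in 2.72% of regions with both late peaks (2.03% to 3.57%) and in 2.44% of all strongest regions. In early regions with a control late peak alone it was found in 1.89% (1.23% to 2.78%). Both of these late-peak intervals overlapped that of members. Its reversal TTGGNCAA was found in 1.70% of members and 1.25% of regions with both late peaks. ATCGATA of Dref, a factor of housekeeping promoters, was found in 6.81% of members (5.19% to 8.76%) and 8.87% of regions with both late peaks. In early regions with a control late peak alone it was found in 14.8% (13.0% to 16.9%), above the interval of members. CGCAGCNNG of Odd-paired (Opa) was found in 2.19% of members and 2.40% of regions with both late peaks. The E-boxes of Twist (Twi) were found in 2.55% and 3.65% (CATATG) and in 8.39% and 6.86% (CACATG). A match to a short string is a description of the sequence and does not show that the factor was bound.

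**Figure D1:**
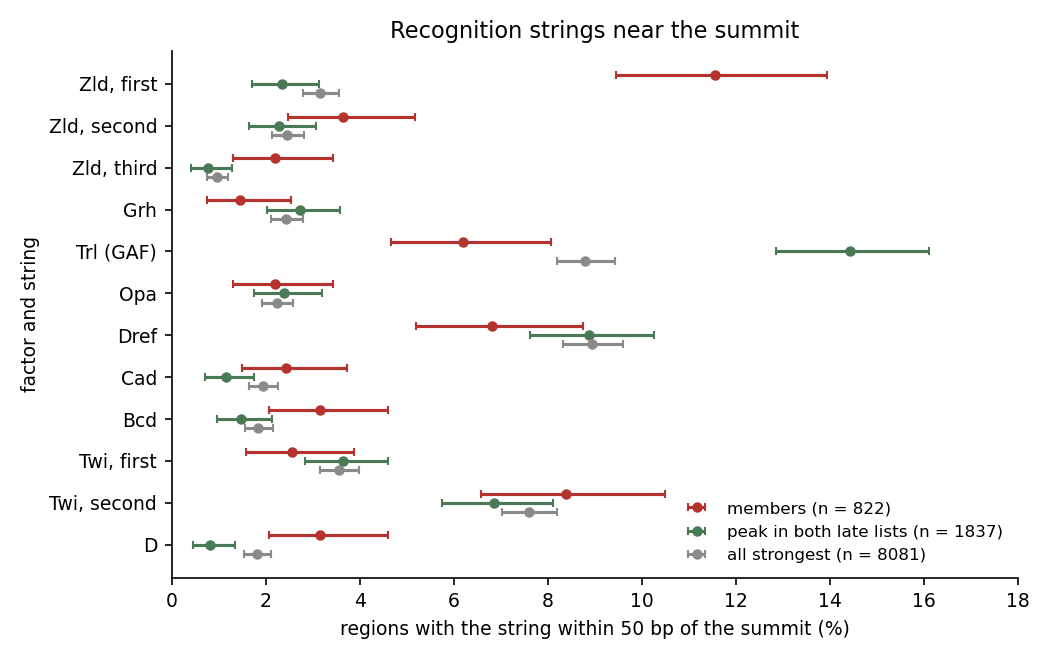
Share of regions (%, x axis) with the string of each factor within 50 bp of the summit, for members, early regions with a peak in both late lists and all strongest regions. Points are shares and bars are exact 95% intervals. The first Zld string reaches 11.6% in members against 2.34%, and the Trl string 6.20% against 14.4%.

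All 8192 strings of 7 letters, each counted with its reverse complement, were then ranked by the difference in share between members and regions with both late peaks, as a description with no test. CAGGTAG was the first of them, with a difference of 9.22 percentage points. The next were GCAGGTA (6.15 points), CAGGTAA (4.79 points), ACAGGTA (4.49 points) and AGGTAGA (4.29 points), all of which overlap CAGGTA or AGGTAG and are not separate observations. At the other end stood CTCTCTC, the reverse complement of the Trl string, with a difference of -8.22 points, and AGAGAGC with -8.08 points.

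The Zld heptamers were concentrated at the summit. In members there were 6.81 copies of CAGGTAG per 100 regions in the 40 bp bin centred on the summit, 4.38 and 3.89 in the bins on either side, and 0.608 per 100 in each of the bins 360 bp away. In the regions with both late peaks the central bin held 1.09 copies per 100 regions. At 240 bp from the summit, members held 0.487 and 0.365 copies per 100 regions on the 2 sides and the regions with both late peaks 0.381 and 0.109.

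**Figure D2:**
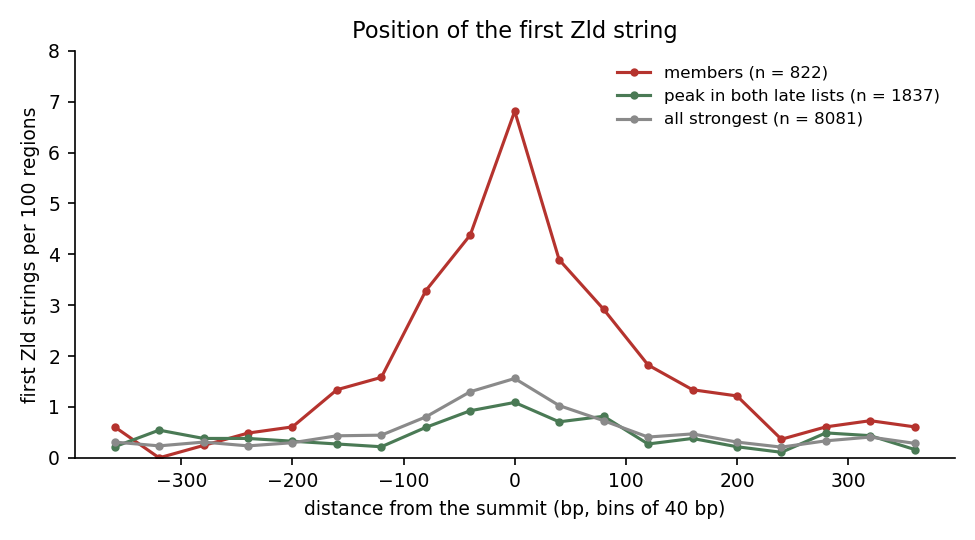
Copies of the first Zld string per 100 regions (y axis) by distance from the strongest summit (x axis, bp, bins of 40 bp) in members, early regions with a peak in both late lists and all strongest regions. The members rise to 6.81 at the summit, where the regions with both late peaks reach 1.09.

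The members were weaker than the early regions that kept a late peak, so shares were also set side by side within classes of early rank. The median rank over the 10 early lists had a median of 3992 in members and 2035 in regions with both late peaks. The share of early regions that were members was 5.78% at median ranks up to 500 (16 of 277 regions), 11.6% from 1000 to 2000, 31.6% from 4000 to 6000 and 38.6% from 6000 to 10000 (134 of 347). Weaker early regions thus more often lacked a late peak. Within these classes, CAGGTAG was found in 6 of the 16 strongest members (37.5%, interval 15.2% to 64.6%) and in 1.42% of the regions with both late peaks of the same rank (0.294% to 4.10%). Between ranks 2000 and 4000 the shares were 13.2% (9.41% to 17.8%) and 1.80% (0.901% to 3.19%), and between 4000 and 6000 they were 8.30% (5.34% to 12.2%) and 1.62% (0.443% to 4.09%). The intervals did not overlap in 4 of the 6 classes. They overlapped between ranks 500 and 1000, where the shares were 11.4% and 5.16%, and between 6000 and 10000, where they were 7.46% and 2.67%. Read the other way, 57.2% of the 166 early regions with CAGGTAG had no late peak (49.3% to 64.9%), against 19.0% of the 3833 without it (17.7% to 20.2%). Position enters this gap. Within 1 kb of a start site the shares were 42.2% with the heptamer and 12.0% without it. Farther away they were 72.3% and 46.5%.

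**Figure D3:**
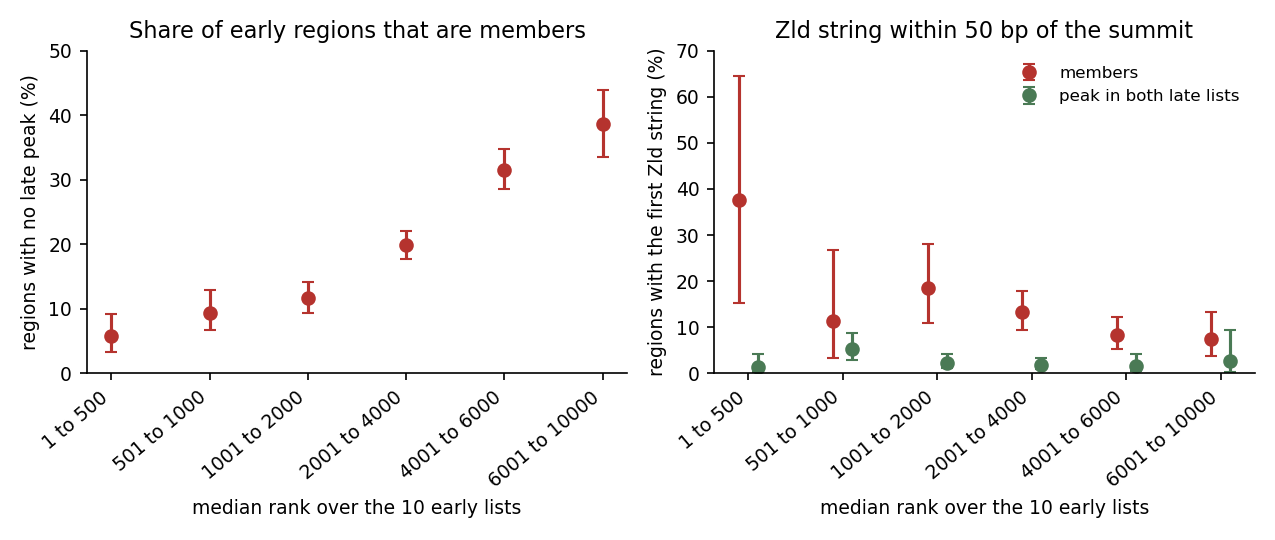
Left, share of early regions that are members (%, y axis) by class of median early rank (x axis). Right, share of regions with the first Zld string (%, y axis) in members and in early regions with a peak in both late lists, by the same classes. Bars are exact 95% intervals. The share of members runs from 5.78% to 38.6%, and the Zld share of members from 37.5% in the strongest class to 7.46% in the weakest.

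The members lay away from promoters more often than the regions that kept a late peak. The strongest summit lay at a promoter, here 1 kb or less from an annotated start site, in 404 members (49.1%, interval 45.7% to 52.6%), against 86.8% of regions with both late peaks (85.2% to 88.3%) and 64.4% of all strongest regions (63.3% to 65.4%). Introns held 28.2% of members and 8.33% of regions with both late peaks, intergenic sequence 17.5% and 3.70%, and exons outside the promoter window 5.11% and 1.14%. Intron and exon here mean those of any annotated gene, not only of the gene with the nearest start site. A start site was more than 10 kb away in 85 members (10.3%), against 2.40% of regions with both late peaks. The median width was 512 bp in members, 716 bp in regions with both late peaks and 521 bp in all strongest regions. The median GC content within 50 bp of the summit was 48.5% in members, 50.5% in regions with both late peaks, 46.5% in those with a control late peak alone and 48.5% in all strongest regions. In both measures the median of members was close to that of all strongest regions. Both at promoters and elsewhere, the Zld share was higher in members. CAGGTAG was found in 8.66% of members at promoters (6.11% to 11.8%) and 14.4% of those elsewhere (11.1% to 18.1%), compared with 1.88% (1.27% to 2.67%) and 5.37% (2.89% to 9.01%) of regions with both late peaks, and the intervals did not overlap in either class.

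The nearest peak of the control late list was at a median distance of 1463 bp from a member, with a lowest value of 10 bp and a highest value of 17611 bp. Such a peak lay within 500 bp of 160 members (19.5%), within 2000 bp of 506 (61.6%) and within 5000 bp of 743 (90.4%). The gene with the nearest start site had a late peak at a start site for 60.2% of members (56.8% to 63.6%), below the 89.3% of all 3999 early regions (88.3% to 90.2%) and the 97.3% of regions with both late peaks. This share was 45.3% for the 404 members at promoters and 74.6% for the 418 others. The rule bears on these shares. A member at a promoter can overlap no late peak. Of the regions with both late peaks, 86.8% lay at a promoter, where their own late peak can be the one counted. The shares are therefore a description, and nothing is read from their distance. The member farthest from a control late peak, at 17611 bp, was the promoter region of tld, which encodes the Tolloid protease of dorsal BMP signalling.

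The 10 strongest members, by median rank over the 10 early lists, were nearest to cnc, alpha-Man-IIb, CG42662/CG46433, lncRNA:CR46250, lncRNA:CR46075, CG14937, CG14563, halo, CG43203 and corn. Of these 10, 6 were at a promoter and 5 held at least 1 Zld heptamer near the summit. The first lies on chr3R:23193293-23193874, 249 bp from a start site of cnc, a bZIP factor of head segmentation. It ranked 30 in grhM-, 120 in grhMwt, 275 in grhMwtZwt and 71 in grhM-Z- at stage 5. At stage 6 its lowest, median and highest ranks over 6 lists were 7, 77.5 and 301. It was thus among the strongest 301 regions of every early list, and its nearest late control peak was 1765 bp away. The region at alpha-Man-IIb, which encodes a mannosidase of N-glycan processing, lies on chr3R:15810419-15811011 and ranked 88, 840, 320 and 358 in the same stage 5 order. Its stage 6 ranks ran from 23 to 324 with a median of 98, and 63.4% of the bases around its summit were G or C. The promoter region of halo, a regulator of lipid droplet transport at cellularization, lies on chr2L:1517761-1518455. It ranked 308, 61, 720 and 221 at stage 5 and from 275 to 780 at stage 6, so its stage 5 and stage 6 ranks overlapped. Its nearest late control peak was 13100 bp away. The promoter region of CG42662/CG46433 on chr2R:15699705-15700146 ranked 25 to 77 in the stage 5 lists and 177 to 745 in the stage 6 lists, which did not overlap. In the single embryos of the third experiment its stage 5 and stage 6 ranks did overlap. The stage difference there was -2.35 ± 1.01 (SE) on the log2 scale, not past the threshold (limma adjusted p = 0.0931). An intergenic region on chr2R:6416618-6417363, 84588 bp from the start site of lncRNA:CR46075, had ranks from 5 to 1226 and a fold enrichment over background of 26.1 to 83.8. The promoter region of CG14937 on chr2L:11793775-11794336 ranked 22 to 352 at stage 5 and 268 to 1021 at stage 6. The region near CG43203 on chr3R:19350317-19350913 ranked 62 to 537 at stage 5 and 276 to 802 at stage 6. The stage 5 and stage 6 ranks of both overlapped, as did those of the promoter region of corn on chr3L:7155893-7156805, at 122 to 338 and 111 to 2036. A late control peak lay 207 bp from the region at corn.

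**Figure D4:**
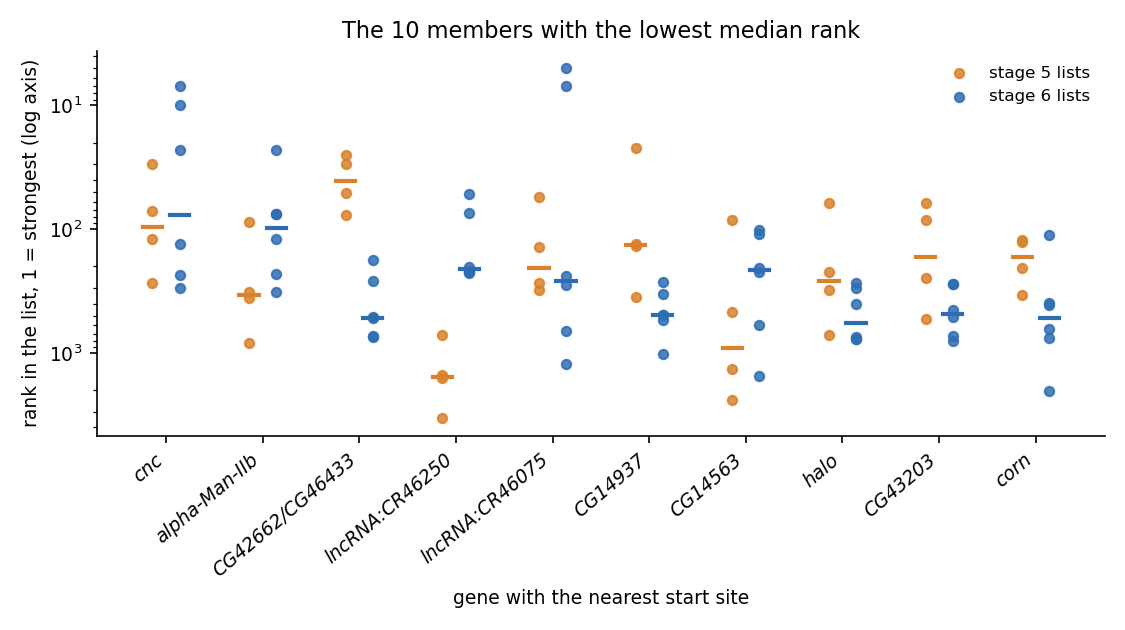
Rank (y axis, log scale, strongest at the top) of the 10 members with the lowest median rank in each of the 4 stage 5 and 6 stage 6 lists, by the gene with the nearest start site. Points are lists and bars are medians. The region at cnc stays between ranks 7 and 301, while the region at lncRNA:CR46250 runs from 721 to 3384 at stage 5 and from 52 to 226 at stage 6.

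The 822 members were nearest to 759 genes, of which 58 had 2 or more members and 5 had 3. These 5 genes were Svil (the actin-binding protein supervillin), CG15233, Ir21a (an ionotropic receptor), Shrm (the Shroom family) and Kdm4B (a histone demethylase). The members of Svil were spread over chr3L:2385281-2483721 and had median ranks of 609, 2463 and 2618. The members of Ir21a lay within the chitin deacetylase-like gene Cda5 at median ranks of 1932, 2286 and 5990, so the nearest start site need not mark the gene concerned. The median ranks were 1739, 2577 and 3724 at CG15233, 2134, 5448 and 7192 at Shrm, and 2977, 3888 and 4191 at Kdm4B, and all 9 regions were intronic. Another member lay within 5000 bp of 103 members (12.5%) and within 10000 bp of 191 (23.2%).

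The neighbourhood of genes of the blastoderm was examined with lists of patterning, cellularization and genome activation genes. Of 79 such genes on chromosomes 2 and 3, 22 were nearest to a member, and 26 members (3.16%, interval 2.08% to 4.60%) were nearest to such a gene. The share was 3.48% in regions with both late peaks (2.69% to 4.43%), and this interval overlapped that of members. In early regions with a control late peak alone it was 1.21% (0.694% to 1.96%), below the interval of members. Over all 3999 early regions, members included, it was 2.65% (2.18% to 3.20%). How many early regions of each list were members is a small count and was not tested between lists. In the cellularization list this was 3 of 6 early regions and in the dorsal ectoderm and amnioserosa list 7 of 16 (43.8%), while in the segment polarity list it was 0 of 9. Between these lay the head patterning list with 3 of 8, mesoderm with 4 of 12 and neuroectoderm with 3 of 12. The pair-rule list had 2 of 10, Hox 4 of 23, gap and terminal 1 of 7 and genome activation and chromatin factors 1 of 9. For comparison, 5 of 46 early regions nearest to a cytoplasmic ribosomal protein gene were members (10.9%), and 0 of 3 nearest to a cuticle gene and 0 of 4 nearest to a muscle gene. The strongest of these members at ribosomal protein genes were promoter regions of RpS15, with a median rank of 898, and RpL40, with 3611. Over all early regions, 822 of 3999 were members.

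In the dorsal ectoderm list the members lay at srp, tld, tup, ush, Doc2 and pnr. The GATA factor gene srp had a promoter region on chr3R:15994176-15994737 with a median rank of 884 and a second region in an intron with a median rank of 901. In the mesoderm list, members lay at the FGF receptor gene htl, the FGF adaptor gene stumps, the bHLH factor gene twi and zfh1. The promoter region of htl on chr3R:18049176-18049651 ranked between 512 and 935 in the stage 5 lists and between 774 and 1652 in the stage 6 lists. The promoter region of twi on chr2R:23045966-23046571 ranked 447, 549, 2325 and 388 at stage 5, and from 577 to 2958 with a median of 1886 at stage 6. Neither held a Zld heptamer near its summit. In the neuroectoderm list, wntD, which encodes a Wnt ligand that inhibits the Dorsal pathway, had a promoter region on chr3R:13293098-13293763. It ranked 38, 428, 305 and 252 at stage 5 and from 208 to 2895 at stage 6. The Sox factor gene SoxN was nearest to an intergenic region 15684 bp away with a median rank of 821, and sim to a promoter region with a median rank of 3971. Among Hox genes, Antp had 2 members and Scr and Ubx 1 each. The intronic region nearest to Scr ranked 285 to 2117 in the stage 5 lists and 3884 to 8059 in the stage 6 lists. These ranges did not overlap. The intronic region at Antp/CG46458 had a median rank of 4582. The head gene slp1, which is also a pair-rule gene, had 1 member with a median rank of 5258, and the pair-rule gene opa had 1 with a median rank of 6138. At the cellularization gene Btk, a Tec-family tyrosine kinase, the strongest rank of the 2 members in any list was 1479 and 1393.

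Whether members differed between stage 5 and stage 6 was tested over the 11 single embryos of the third experiment. Regions of grhMwt_stage6 on chromosomes 2 and 3 with a peak in all 11 embryos were ranked within each embryo, and limma was fitted to the log2 rank of 7987 regions with stage and genotype. Of the 822 members, 807 had a peak in all 11 embryos, 12 in 10, 2 in 9 and 1 in 8. Between 816 and 822 members had a peak in any given embryo. The rule required members to be among the strongest regions in the lists of these same embryos at both stages and in both genotypes. This bounds how far their ranks can differ, whereas the other tested regions are not bounded in this way, so the shares of members called are a description and nothing is read from their distance to the shares over all regions. At stage 6, 98 members were weaker (12.1% of those tested), against 11.3% of all tested regions, and 66 were stronger (8.18%), against 12.7% (limma, Benjamini-Hochberg adjusted over all tested regions). In the early regions with both late peaks, 7.76% were weaker and 10.9% stronger. The median change in members was -0.15 on the log2 rank scale, where positive values mean stronger at stage 6, against -0.03 over all tested regions. By sequence, 18 of the 93 tested members with CAGGTAG were weaker at stage 6 (19.4%) and 4 stronger, against 80 (11.2%) and 62 of the 714 without it. The difference between these shares was not tested.

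The pooled lists of the first experiment share no embryo with that fit, but the rule used them and took the summits from grhMwt_stage6. Their values are therefore a description. The median rank of members was 3449 in grhMwt at stage 5 and 4129 at stage 6, and 3421 and 4348 in grhM-. The median change of members with CAGGTAG was -1.65 in grhMwt and -1.14 in grhM- on the log2 scale, against -0.13 and -0.21 for members without it. In grhMwtZwt and grhM-Z-, whose lists hold the embryos of the fit, the values were -0.36 and -0.57, against -0.15 and -0.01. All 4 pairs of lists thus had the lower median in members with the heptamer. The regions with both late peaks showed the same order, at -0.79 and -0.77 with CAGGTAG against 0.42 and 0.22 without it in grhMwt and grhM-, so the order by sequence was not limited to members.

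The largest change with stage was at a region within an intron spanning chr3R:2473272-2474279, 270913 bp from the start site of lncRNA:CR45220. Its ranks among tested regions were 21, 48 and 3 in grhMwtZwt and 3, 26 and 540 in grhM-Z- at stage 5, and 1703 and 2231 in grhMwtZwt and 749, 4198 and 5854 in grhM-Z- at stage 6. No stage 5 embryo overlapped a stage 6 embryo, and the change was -6.61 ± 1.09 (SE) on the log2 scale (limma adjusted p = 0.000207). An intronic region near bun, which encodes a TSC22-family factor, lies on chr2L:12466531-12466902. It ranked 197, 27 and 25 in grhMwtZwt and 96, 106 and 84 in grhM-Z- at stage 5, and between 2675 and 4270 in the 5 embryos at stage 6 (-5.61 ± 0.66, limma adjusted p = 9.4e-06). The pooled lists of the other experiments gave ranks of 37 in grhM- and 24 in grhMwt at stage 5, and of 4181 in grhM-, 6163 in grhMwt, 5762 in grhZ- and 5215 in grhZwt at stage 6. An intronic region near mtg changed by -4.55 ± 0.71 (limma adjusted p = 0.00014). The promoter region of the Notch-responsive Bearded family gene E(spl)m4-BFM changed by -3.79 ± 0.72 (limma adjusted p = 0.000719), and a region near lncRNA:CR46353 by -3.68 ± 0.67 (limma adjusted p = 0.000516). None of these 5 regions held CAGGTAG within 50 bp of its summit in grhMwt_stage6, the list that set all summits.

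In the other direction, an intergenic region 6029 bp from the start site of CG6244 on chr3L:15801892-15802709 rose by 3.54 ± 0.55 (SE) on the log2 scale (limma adjusted p = 0.000116). It ranked 3628 to 5791 in the 6 stage 5 embryos and 587, 1076, 1097, 128 and 90 in the 5 stage 6 embryos. A region 1111 bp from CG14563 rose by 3.65 ± 0.92 (limma adjusted p = 0.00621), although a stage 5 embryo at rank 35 lay within the range of the stage 6 embryos, from 23 to 154. In the pooled lists of the first experiment this region went from rank 1354 to 601 in grhMwt, but from 469 to 1555 in grhM-. Its list ranks at stage 5 and stage 6 were 85 and 102 in grhMwtZwt, and 2392 and 109 in grhM-Z-. An intronic region near Hs6st, the heparan sulfate 6-O-sulfotransferase gene, rose by 3.37 ± 0.56, the region near lncRNA:CR46250 by 2.77 ± 0.68 and a promoter region of Hdc, the histidine decarboxylase gene, by 2.73 ± 0.72 (limma adjusted p = 0.000207, 0.00484 and 0.0083). At Hdc the stages overlapped, with stage 5 embryos at ranks 333 and 629 and a stage 6 embryo at 854.5. Among members at listed genes, a region 7093 bp from a start site of the gap gene Kr rose by 2.54 ± 0.56 (limma adjusted p = 0.00233). It ranked 2265 to 6252 in the stage 5 embryos and 290, 3056, 2214, 1031 and 214 at stage 6, and the groups overlapped by 1 embryo on each side. A region near opa fell by 0.98 (SE 0.26, limma adjusted p = 0.00944) and an intronic region near Scr by 1.70 (SE 0.43, limma adjusted p = 0.00612). The promoter region of cnc, by contrast, differed by 2.36 ± 1.13 (limma adjusted p = 0.132) and that of halo by -1.08 ± 0.66 (limma adjusted p = 0.244), neither past the threshold.

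**Figure D5:**
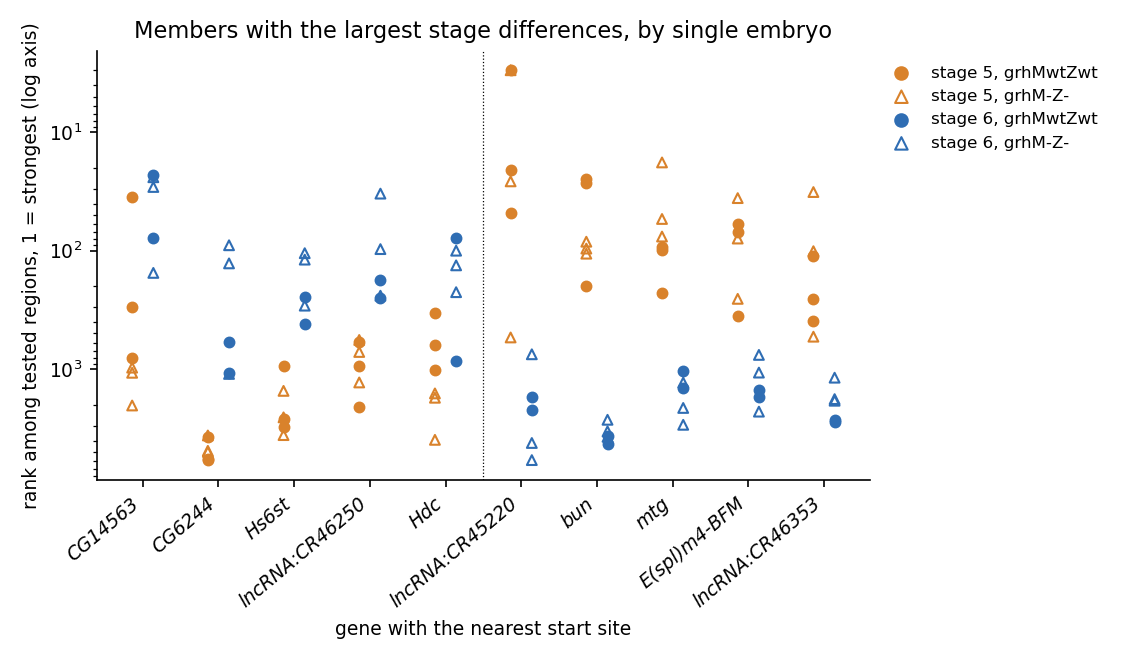
Rank among the 7987 tested regions (y axis, log scale, strongest at the top) in each of the 11 single embryos for the 5 members that rose most (left of the dotted line) and the 5 that fell most (right) at stage 6. Colours are stages, filled circles are grhMwtZwt and open triangles grhM-Z-. At bun the stage 5 embryos lie between 25 and 197 and the stage 6 embryos between 2675 and 4270.

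Loss of Grh was compared in the same fit, with members again bounded by the rule, which used the lists of both genotypes. At an adjusted p under 0.05 (limma), 0 members and 0 of all 7987 tested regions (0%) were stronger in grhM-Z- than in grhMwtZwt, and 0 members and 0 regions (0%) were weaker. At an unadjusted p under 0.05 there were 78 members and 640 regions. By arm, the count at the unadjusted threshold was 18 of 208 members on 2L, 25 of 183 on 2R, where grh lies, 22 of 200 on 3L and 13 of 216 on 3R. Over all tested regions it was 166 of 1769 on 2L, 197 of 1879 on 2R, 149 of 2057 on 3L and 128 of 2282 on 3R, so 2R also had the highest count and 3R the lowest there. The paper treats losses seen mostly on chromosome 2 in its zygotic mutants at stage 6 as false positives. It holds that the grhB37 chromosome likely gathered mutations that hindered read mapping. Whether this affected the counts here was not tested. The median change of members with genotype was 0.05 on the log2 rank scale, with quartiles at -0.21 and 0.34. An interaction of stage and genotype also gave 0 members and 0 regions (limma), with 29 members and 390 regions at an unadjusted p under 0.05. The change of stage was therefore not shown to differ between genotypes. The grhZ- and grhZwt lists at stage 6 gave members a median rank of 3895 and 3819, with no replicates to test.

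The members nearest to the rank limit were as follows. The weakest rank of a member in any early list was 9996 at Kul, 9995 at Su(var)205 and 9987 at lncRNA:CR46006. Just outside lay a region of CG4440 at 10001, of side-V at 10005 and of vn at 10007. Without a late peak there were 2882 of the strongest regions, of which 822 met the limit in every list, and 168 more failed in grhMwt at stage 5 alone. Each other list alone kept out 14 to 35 regions.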

How the data were processed

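ATAC-seq peaks of 31 samples in 12 lists were analysed. The authors trimmed the 150 bp paired reads with Trimmomatic 0.36, aligned them to dm6 with Bowtie2, removed fragments over 101 bp and called summits with MACS2 at a q-value of 0.05. The 100 bp single-end reads at 11-12 h AEL had no fragment limit. The deposited lists give, as MACS2 wrote them, the fold enrichment of each summit, a ratio to the local background, and its −log10 p-value and −log10 q-value. Read totals were not used here. Fragment pileup and background were solved from the deposited fold enrichment and p-value; in each list at least 99.9% of pileups came out whole to a tolerance of 0.05.

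Overlapping rows were merged, ranked by highest −log10 q and compared by an overlap of 1 bp. Members and gene lists were chosen with earlier results of these data known. Named regions are the 10 members of lowest median rank, the 5 genes with most members, the 2 best-ranked members of each gene list, the 5 members with the largest called stage or genotype difference in each direction, and 3 regions on each side of the rank limit. The regions at tld and sim and the further members of listed genes were added after their values were seen. Start sites, UTRs and exons come from Ensembl release 115 without transposable elements. Each of 12 strings was searched on both strands in the RefSeq Release 6 sequence, whose chromosome lengths no deposited peak exceeds. Fits used limma 3.58.1 in R with a trended variance, on minus log2 rank, and were tested on simulated data. The list names of embryos do not carry the label replicate numbers, so embryos entered as members of their group. The p-values measure the spread between single embryos. Other steps used Python 3.11.15 with numpy 2.4.6, pandas 2.3.3 and scipy 1.17.1.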

Additional observations from a re-analysis of the deposited data

How the results depend on the processing

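The number of members was within 1.5 times 822 under 14 of 16 alternatives, including each early list left out in turn (836 to 990, the highest without grhMwt_stage5). It moved to 203 with a rank limit of 5000 and 1646 with 15000. The share within 1 kb of a start site moved to 44.8% with a rank limit of 5000, 57.7% when only late peaks with a −log10 q of at least 5 counted, and 35.4% when ranking by fold enrichment, an alternative chosen after seeing the data. With a start site window of 500 bp it was 40.4%. The share with CAGGTAG moved to 18.4% within 100 bp of the summit, 26.8% anywhere in the region (9.09% in regions with both late peaks), 20.7% with a rank limit of 5000 (2.97%) and 8.80% with the stricter late peaks. Around the summit of grhMwt_stage5 it was 13.5% (3.16% in regions with both late peaks). When ranking by fold enrichment, also chosen after seeing the data, it was 9.48%. The cause of these shifts was not tested.

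The number of members called by stage was 164, and 131 to 182 without each embryo in turn. Over the 10 early lists it was 210 of 822, with 161 weaker and 49 stronger at stage 6, so the weaker share of calls was 76.7% against 59.8%. Over all 10734 regions tested in these lists, 14.2% were weaker and 13.5% stronger. The rule used the ranks in these same 10 lists, which bounds members only, so these counts are a description. Of the 164, 124 were also called there with the same sign, though 4 of those lists hold the same embryos. By genotype the number called was 0, moved to 2 without the filter on missing peaks, and was 0 to 1 without each embryo in turn, with the 1 call made without a grhM-Z- embryo at stage 5. No paired analysis was possible because the embryos named in the lists carry no replicate number of the labels and the other lists hold replicates together. Rank and absence depend on depth and list length, and no late group has replicates.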
